A study of Mus musculus with 12 samples.

Results

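The nuclear genes of oxidative phosphorylation were followed in mouse B-ALL cells, leukaemia cells of the B-lymphoid lineage. Rows of the count table were taken whose symbol marks a subunit of complex I (Nduf), complex II (Sdh), complex III (Uqcr and Cyc1), complex IV (Cox4 to Cox8) or complex V (Atp5). Of 24982 gene rows 86 matched, and 80 had at least 10 counts in 3 or more libraries. These 80 genes comprised 36 of complex I, 4 of complex II, 9 of complex III, 14 of complex IV and 17 of complex V. Ndufa4 was counted with complex IV, where its protein is placed by later structural work. The set holds a processed pseudogene (Ndufb4c) and an assembly-related factor with an ATP synthase symbol (Atp5s). This leaves 78 genes counted as structural, with genes for alternative forms of the same subunit among them. The 6 genes that matched without passing were Cox4i2, Cox6b2, Cox7b2, Cox8b, Cox8c and Ndufa4l2.

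Messenger RNA was sequenced from 12 libraries in 4 groups of 3. DKO cells are labelled as deleted for Bax and Bak (Bax-/-,Bak-/-), and TKO cells for these and for Mcl-1 (Bax-/-,Bak-/-,Mcl-1-/-). Each line was kept for 24 h in regular medium or in low-glucose medium. The labels name 1 line of each genotype, so genotype and line cannot be told apart, and nothing in them tells whether replicate libraries are from separate cultures. The p-values therefore measure the spread between these libraries, which may be technical.

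Oxidative phosphorylation runs in the inner mitochondrial membrane. Complexes I and II pass electrons from NADH and succinate to coenzyme Q, complex III passes them to cytochrome c, and complex IV reduces oxygen. Complexes I, III and IV pump protons, and complex V, the ATP synthase, makes ATP from the gradient. Most subunits are encoded in the nucleus. The 13 encoded in mitochondrial DNA were looked for by symbol. None was found in the count table, so they were not analysed here. Leukaemia cells can draw ATP from glycolysis as well as from this pathway, and low glucose limits the supply of the first.

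Libraries held 22190736 to 56260867 counts. Mcl1 was at 239 ± 2.51 CPM (SD, n = 3) in DKO and at 0.406 ± 0.0619 CPM in TKO, both in regular medium, where CPM is counts scaled by the size of each library and its TMM factor. Bax was not at 0, with DKO at 17.1 ± 0.175 CPM and TKO at 6.17 ± 0.259 CPM in regular medium, and at 21.7 ± 1.16 and 6.83 ± 1.16 CPM in low glucose. Bak1, the gene of Bak, stood at 16.9 ± 1.40 and 5.30 ± 0.713 CPM in regular medium and at 20.004 ± 0.213 and 4.87 ± 0.692 CPM in low glucose. Both genes were called lower in TKO in each medium, and counts per gene do not show whether these reads lie in the deleted part. Summed without that factor, markers of the B-cell lineage came to 4239 to 4755 CPM in every library, and all 8 were above the filter on low counts. Single markers moved apart within that sum: 3 were called higher and 3 lower in TKO in regular medium, 1 and 3 in TKO in low glucose, 3 and 3 in the response of DKO, and 1 and 2 in that of TKO. In regular medium the DKO and TKO means were 811 and 1396 CPM for Pax5, 743 and 422 CPM for Igll1, and 360.4 and 225 CPM for Blnk. The 4 T-cell markers in the table summed to at most 0.162 CPM and the 5 erythroid markers to at most 0.0336 CPM, with Hba-a1, Hba-a2, Hbb-bs and Hbb-bt at 0. The 5 myeloid markers summed to 3.69 to 4.36 CPM in the DKO libraries and to 0.463 to 1.31 CPM in the TKO libraries, with Elane at 0. The 5 stromal markers summed to 87.5 to 173 CPM in the DKO libraries and to 56.2 to 75.5 CPM in the TKO libraries, almost all of it Pecam1, with Col3a1 at 0. Pecam1 was called higher in low glucose in both lines (94.6 to 165 CPM in DKO, 58.4 to 72.6 CPM in TKO). The part of the B-cell, myeloid and stromal markers in the results below was not tested.

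Nuclear respiratory factor 1 (NRF1) is a transcription factor known for binding a palindrome in promoters of respiratory genes, so promoter sequence was set beside the expression values. RefSeq promoter windows (GRCm38.p6) were matched for 65 of the 80 genes (70 windows), and the 250 bases before each start were searched on both strands. The letters CGCATGCG, the inner part of the longer NRF1 palindrome, occurred in 7 of the 70 windows (10%) and in 1.55% of all 32851 windows. The full palindrome, which contains those letters, occurred in 4 windows (5.71%, against 0.782% of all windows). The 7 windows belong to 2 complex I genes, 1 complex IV gene and 4 complex V genes. They are shown because they carry the motif, 5′ to 3′ on the strand of the gene, with the 8 letters in capitals.

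Ndufa11: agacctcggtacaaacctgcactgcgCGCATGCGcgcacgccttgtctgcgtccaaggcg
Ndufa8: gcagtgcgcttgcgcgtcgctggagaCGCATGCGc
Cox6a1: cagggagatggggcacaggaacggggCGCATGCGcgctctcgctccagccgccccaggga
Atp5g2: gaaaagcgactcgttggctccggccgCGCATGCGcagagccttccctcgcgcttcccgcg
Atp5j: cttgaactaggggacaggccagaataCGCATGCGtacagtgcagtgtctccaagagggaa
Atp5k: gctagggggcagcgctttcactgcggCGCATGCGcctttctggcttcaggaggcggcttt
Atp5l: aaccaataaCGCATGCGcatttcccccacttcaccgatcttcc

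These stretches lie at chr17:56717677-56717736 on the plus strand (Ndufa11) and, on the minus strand, at chr2:36049339-36049373 (Ndufa8), chr5:115349086-115349145 (Cox6a1), chr15:102671055-102671114 (Atp5g2), chr16:84835090-84835149 (Atp5j), chr5:108434415-108434474 (Atp5k) and chr9:44920950-44920992 (Atp5l). The end of the motif stood 1 base before the annotated start in Ndufa8, 33 bases before it in Atp5g2 and 233 bases before it in Atp5l, which was the widest distance of the 7. The ETS letters CCGGAAG, read by GABPA, occurred in 12 windows (17.1%, against 6.91% of all). The YY1 letters AAGATGGC occurred in 1 window (1.43%, against 1.56%) and the ERRA letters AAGGTCA in 5 (7.14%, against 4.08%). The windows of these genes had a median GC content of 56.4%, against 52.4% over all windows. A match is a description of letters and does not show binding.

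Per length, the genes of the 5 complexes differed widely in level. TPM (transcript abundance scaled by gene length and library) summed over the 80 genes made up 3.97 ± 0.0291% of all TPM in DKO in regular medium, 3.22 ± 0.0632% in DKO in low glucose, 4.10 ± 0.129% in TKO in regular medium and 3.50 ± 0.0556% in TKO in low glucose (SD, n = 3). In DKO in regular medium the median structural subunit stood at 207 TPM in complex I, 262 in complex II, 244 in complex III, 678 in complex IV and 730 in complex V. The highest was Atp5k, which encodes subunit e of the ATP synthase, at 4890 TPM. Cox6b1, a cytochrome c oxidase subunit on the intermembrane side, stood at 1913 TPM and Atp5b, the catalytic beta subunit of the synthase, at 1566 TPM. In CPM, which is not scaled by length, the order was reversed, with Atp5k at 105, Cox6b1 at 210 and Atp5b at 1464. The lowest structural subunits included 2 forms of complex IV subunits best known from heart and skeletal muscle, Cox6a2 at 1.05 TPM and Cox7a1 at 9.10 TPM.

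The summed level of every complex was lower in low glucose in both lines. Summed TPM of complex I were 8709, 8603 and 8662 in the 3 DKO libraries in regular medium and 7478, 7622 and 7659 in low glucose, a change of -12.4%. In TKO they were 8818, 8656 and 8808 in regular medium and 7800, 8140 and 7803 in low glucose, a change of -9.66%. In both lines all libraries in low glucose lay below all libraries in regular medium, and this held for each of the 5 complexes. The change in DKO was -22.1% for complex II, -18.9% for complex III, -15.2% for complex IV and -25.1% for complex V. The change in TKO was -14.7%, -11.4%, -11.8% and -19.9% for the same complexes.

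**Figure D1:**
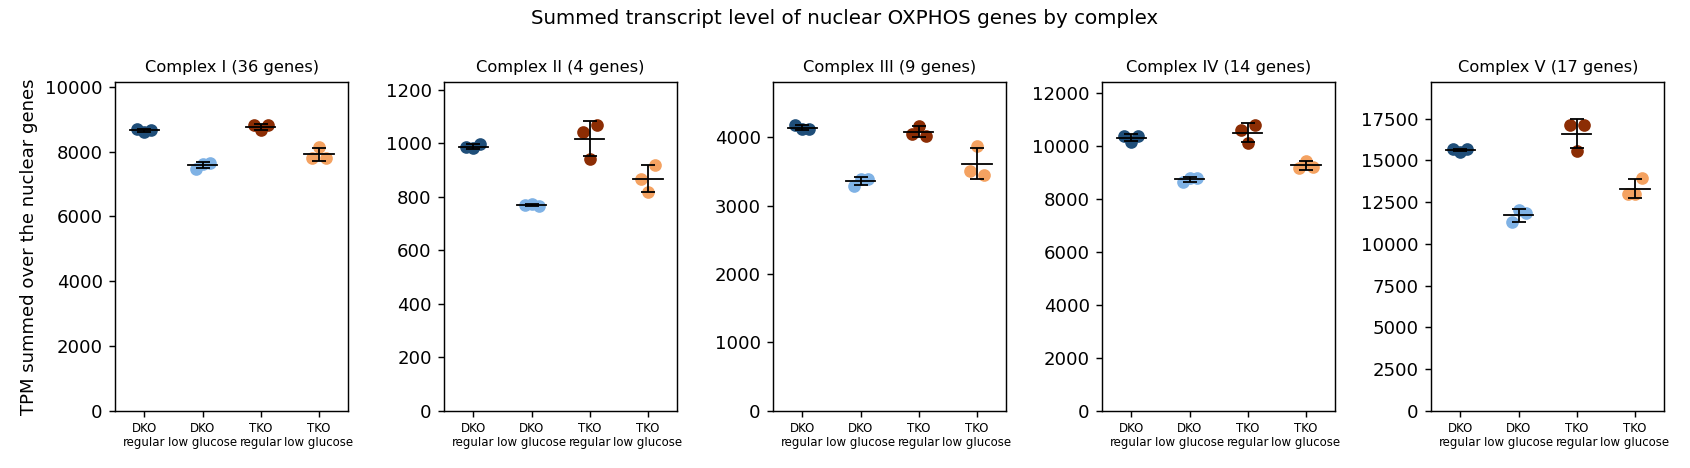
TPM summed over the nuclear genes of each complex (y axis, from 0) in each of the 12 libraries (points), with the mean (long line) and SD (bars) of the 3 libraries of a group. In each panel the low-glucose libraries of a line sit below its regular-medium libraries, with complex V showing the largest change in both lines (-25.1% in DKO, -19.9% in TKO).

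Complex V held the largest sums, 15629 ± 89.7 TPM in DKO in regular medium and 11714 ± 381.9 in low glucose. Atp5k alone made up a large part of them. Without Atp5k, a choice made after its level was seen, complex V stood at 10739 and 8453 TPM in DKO (-21.3%) and at 11588 and 9460 TPM in TKO (-18.4%), which in DKO is a smaller change than that of complex II. The lines overlapped in regular medium in every complex (TKO against DKO from -1.44% in complex III to 6.25% in complex V). In low glucose the sums of all TKO libraries lay above those of all DKO libraries in every complex. The difference was 4.32% in complex I, 12.8% in complex II, 7.68% in complex III, 6.01% in complex IV and 13.6% in complex V. Single genes were less uniform. Their median log2 difference, TKO minus DKO in low glucose, was 0.06, 0.13, 0.01, -0.05 and 0.14 in complexes I to V. In complex III 5 genes were positive and 4 negative, and in complex IV 6 and 8. The sums of complex V hold Atp5a1 and those of complex I hold Ndufa2. Both genes lie on chromosome 18, where the median over all genes tested was higher in TKO (values below). Sums without them were not taken. In bulk samples like these, fewer cells of a type and less RNA per cell cannot be told apart.

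The response to low glucose was tested gene by gene with edgeR's quasi-likelihood test, with a threshold of 0.05 on the p adjusted by Benjamini-Hochberg over all 11988 genes tested. All 80 genes passed the filter on low counts. In DKO 57 of the 80 fell and 6 rose (median log2 difference -0.31). Of all genes tested, 62.7% were called in DKO, with 31.1% that fell and 31.6% that rose (median 0.01). In TKO 52 of the 80 fell and 3 rose (median -0.24), beside 39.9% of all genes called, 17.9% that fell and 22.0% that rose (median 0.01). Of the falls 45 were called in both lines, 78.9% of those in DKO and 86.5% of those in TKO. The same overlap over all genes tested was not taken. The changes were small: 4 of the 57 falls in DKO were of 1.5-fold or more.

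**Figure D2:**
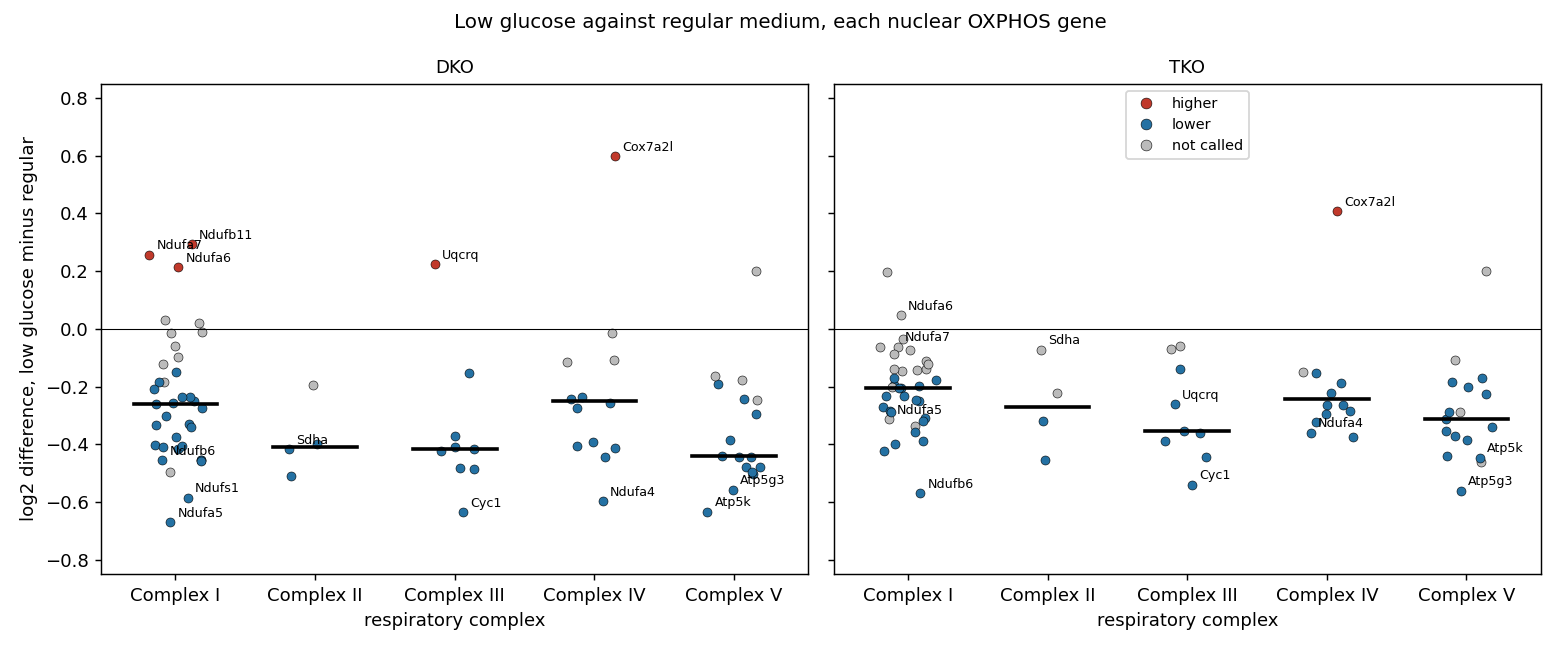
Log2 difference between low-glucose and regular medium (y axis) for each nuclear gene by complex (x axis), in DKO (left) and TKO (right). Red and blue points passed the test as higher and lower, grey points did not, and black lines are medians. Cox6a2 (4.81 in DKO, 2.83 in TKO) and Cox7a1 in TKO (1.11) lie above the axis and are not drawn.

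Complex I takes electrons from NADH through a core of flavin and iron-sulphur subunits, surrounded by accessory subunits. In DKO 24 of its 36 genes fell and 3 rose (median -0.26), and in TKO 20 fell and none rose (median -0.20). Ndufs1, the largest iron-sulphur subunit of the core, was at 174, 172 and 177 CPM in DKO in regular medium and at 117, 116 and 116 CPM in low glucose. In TKO it was at 178, 177 and 179 CPM in regular medium and at 152, 149 and 161 CPM in low glucose. The 4 groups thus split into DKO in low glucose, lowest, TKO in low glucose, and the regular-medium groups, which overlapped. Ndufs1 fell by 0.58 ± 0.04 (SE) on the log2 scale in DKO (adjusted p = 7.39e-09) and by 0.21 ± 0.04 in TKO (adjusted p = 0.000575).

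Among the core subunits, Ndufs1, Ndufs7, Ndufs8, Ndufv1 and Ndufv2 fell in DKO. In TKO these 5 and Ndufs3 fell. Among the accessory subunits, Ndufa5 was at 46.2, 43.5 and 44.7 CPM in regular medium and at 29.0, 27.6 and 27.9 CPM in low glucose in DKO, the deepest fall of the module in that line (-0.67 ± 0.12, adjusted p = 0.000283). Its TKO libraries overlapped between the media, at 45.0, 56.6 and 46.5 CPM and at 36.0, 51.3 and 33.3 CPM, and the difference of -0.31 was not called (adjusted p = 0.061). With the replicate number as a block within TKO it was called (-0.34, adjusted p = 0.000239), replicate 2 being the highest of the 3 in both media. Ndufb6, an accessory subunit of the membrane arm, had the deepest fall in TKO (-0.57 ± 0.13, adjusted p = 0.00392) and fell by 0.46 in DKO.

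A few accessory subunits of complex I went the other way in DKO. Ndufb11, a small membrane-arm subunit encoded on the X chromosome, was at 82.2, 79.0 and 79.6 CPM in regular medium and at 95.9, 100.4 and 99.1 CPM in low glucose in DKO, with no overlap. It rose 1.23-fold there (adjusted p = 0.00188). In TKO the media overlapped (77.6, 64.7 and 76.7 CPM against 72.8, 62.3 and 74.0 CPM). Ndufa7 rose 1.19-fold in DKO (adjusted p = 0.00253) and Ndufa6, an accessory subunit of the LYR family, rose 1.16-fold (adjusted p = 0.00185). Neither was called in TKO (-0.06 and 0.05 on the log2 scale). Ndufb11 overlaps the gene Rbm10 on the opposite strand, and the strand setting of the counting is not given. Ndufs1, Ndufa2 and Atp5a1 likewise overlap annotated genes (Eef1b2, Tmco6 and Haus1).

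Complex II links the citric acid cycle to the chain. Its flavoprotein gene Sdha was at 415, 408 and 417 CPM in regular medium and at 307, 313 and 310 CPM in low glucose in DKO, a fall of 0.42 ± 0.05 on the log2 scale (adjusted p = 9.16e-06). In TKO its libraries overlapped between the media, at 398, 433 and 400 CPM and at 373, 427 and 371 CPM (-0.07, adjusted p = 0.3). The iron-sulphur subunit gene Sdhb fell in both lines (-0.40 and -0.32). The membrane anchor gene Sdhd fell by 0.51 in DKO (adjusted p = 9.7e-05) and by 0.45 in TKO (adjusted p = 0.000769). The other anchor gene, Sdhc, was not called in either line (-0.20 and -0.22), and was called in TKO with the replicate block (-0.24, adjusted p = 0.000486).

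In complex III, 8 of 9 genes fell in DKO and 7 in TKO. Cyc1, which encodes cytochrome c1, was at 115, 110 and 113 CPM in regular medium and at 69.7, 76.9 and 72.0 CPM in low glucose in DKO, and at 121, 102 and 124 CPM and 82.3, 72.1 and 84.0 CPM in TKO. The media did not overlap in either line, and Cyc1 fell 1.55-fold in DKO (adjusted p = 3.22e-06) and 1.45-fold in TKO (adjusted p = 7.01e-05). Uqcr10 fell similarly in size in both (-0.49 and -0.45). Uqcrq, which encodes the small subunit next to cytochrome b, was the exception. It was at 63.3, 59.4 and 58.2 CPM in regular medium and at 66.5, 73.0 and 71.7 CPM in low glucose in DKO, and rose there (0.22 ± 0.06, adjusted p = 0.00605). In TKO it was at 68.7, 57.0 and 66.7 CPM and at 53.9, 54.2 and 52.7 CPM, and fell (-0.26 ± 0.06, adjusted p = 0.00527). It was the 1 gene of the 80 called in opposite directions in the lines.

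Complex IV held the steepest rise. Cox6a2 encodes the muscle form of subunit VIa, and Cox6a1 the form found in most tissues. Cox6a2 was at 0.361, 0.206 and 0.128 CPM in regular medium and at 6.42, 6.21 and 6.50 CPM in low glucose in DKO, from 7 to 16 counts up to 229 to 315 counts per library. In TKO it was at 0.305, 0.550 and 0.456 CPM and at 2.99, 3.85 and 2.75 CPM. It rose 28.1-fold in DKO (log2 4.81 ± 0.20, adjusted p = 1.86e-10) and 7.13-fold in TKO (2.83 ± 0.24, adjusted p = 1.03e-06). Its share of the summed TPM of Cox6a1 and Cox6a2 went from 0.163 ± 0.0805% to 5.17 ± 0.199% in DKO and from 0.314 ± 0.101% to 2.85 ± 0.294% in TKO (SD, n = 3). Cox6a1 fell in both lines (-0.27 and -0.38) and remained the main form.

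Cox7a2l, also known as Scaf1 and linked to the joining of complexes III and IV into supercomplexes, rose at a high level. It was at 138, 134 and 135 CPM in regular medium and at 206, 205 and 207 CPM in low glucose in DKO (1.51-fold, adjusted p = 6.34e-07). In TKO it was at 117, 132 and 118 CPM and at 159, 178 and 150 CPM (1.33-fold, adjusted p = 0.000114). Media did not overlap in either line. Its paralog Cox7a2 fell (-0.41 and -0.28), and Cox7a2l went from 33.7 ± 0.406% to 50.5 ± 0.866% of the TPM of Cox7a1, Cox7a2 and Cox7a2l in DKO and from 33.4 ± 4.05% to 41.8 ± 4.64% in TKO. How reads shared by paralogs were counted is not given, so values of these families carry that uncertainty. The remaining complex IV genes mostly fell, 9 of 14 in DKO and 10 of 14 in TKO, with Ndufa4 (-0.60 and -0.36) and Cox5a (-0.44 and -0.32) among them. Cox4i1, the widely expressed form of subunit IV, was level in DKO (262 ± 8.90 and 259.9 ± 7.95 CPM, not called) and fell by 0.15 in TKO. Its alternative form Cox4i2 had at most 4 counts in any library.

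In complex V, 13 of 17 genes fell in each line and none rose, with a median of -0.44 in DKO and -0.31 in TKO. The catalytic beta subunit gene Atp5b fell by 0.50 in DKO and 0.38 in TKO. Atp5g1, Atp5g2 and Atp5g3 are separate genes for the same mature subunit c of the rotor ring. Atp5g3 was at 298, 296 and 299 CPM in regular medium and at 194, 212 and 201 CPM in low glucose in DKO, and at 346, 251 and 336 CPM and 213, 186 and 234 CPM in TKO, with no overlap between media. It fell 1.47-fold in DKO (adjusted p = 0.000242) and in TKO (adjusted p = 0.000641). Atp5g1 fell as well (-0.48 and -0.44). Atp5g2 differed by -0.16 in DKO, where it was not called, and fell by 0.34 in TKO. Atp5k fell 1.55-fold in DKO and 1.36-fold in TKO. Atp5e, the epsilon subunit of the central stalk, was not called in either line (-0.18 and -0.46) and was called in TKO with the replicate block (-0.49, adjusted p = 7.42e-06). Atp5mpl and Atp5h were also called in TKO only with the block (-0.31 and -0.13), as was Cox7c of complex IV (-0.18). With the block, 64 of the 80 genes fell in TKO and 4 rose. The shares of all genes given above are from the fit without the block and do not apply to these counts. The block takes the replicate numbers as pairs, which the labels do not state.

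Of the 7 genes whose promoter windows are printed above, 6 fell in DKO and 7 in TKO. Beside them, 57 of all 80 genes fell in DKO and 52 in TKO (31.1% and 17.9% of all genes tested). The 8 letters occurred in 6 of the 55 windows of genes that fell in DKO, near their share of all 70 windows (10%). A link between motif and response was not tested. The printed gene that was not called in DKO was Atp5g2 (-0.16).

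Genes that act on the complexes from outside were described beside the subunits. For the counts below, 31.1% of all genes tested fell and 31.6% rose in DKO, and 17.9% fell and 22.0% rose in TKO. Of 50 tested assembly factors 27 fell and 8 rose in DKO (median -0.20), and 18 fell and 0 rose in TKO (median -0.17). Of 14 genes for cytochrome c and coenzyme Q synthesis, 8 fell and 5 rose in DKO, and 7 fell and 2 rose in TKO. Cycs, cytochrome c itself, fell by 0.73 in DKO (adjusted p = 5.7e-09) and 0.33 in TKO (adjusted p = 7.09e-05), and Coq8a, an atypical kinase-like protein of coenzyme Q synthesis, rose by 0.84 and 0.63. Of 13 tested regulators of respiratory genes, 12 fell and 1 rose in DKO (median -0.38), and 5 fell and 0 rose in TKO (median -0.10). Nrf1 was at 67.4 ± 0.808 CPM in regular medium and 41.1 ± 0.359 CPM in low glucose in DKO (-0.71, adjusted p = 6.9e-10), and at 72.6 ± 0.89 and 56.8 ± 0.755 CPM in TKO (-0.35, adjusted p = 4.39e-06). Pprc1, a coactivator of the PGC-1 family, fell by 0.66 and 0.41. Esrra, the oestrogen-related receptor alpha gene, was the 1 regulator that rose in DKO (0.33, adjusted p = 0.00101), and was not called in TKO (-0.14).

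The difference between the responses of the lines was tested as an interaction, the TKO response minus the DKO response. It was called for 19 of the 80 genes, 13 higher and 6 lower (median 0.07), beside 29.6% of all genes called, 17.6% higher and 12.1% lower (median 0.03). With no filter on low counts it was 6 higher and 10 lower, and without replicate 2 of TKO in both media 17 and 17, so the balance of directions depends on these choices. The genes called higher had a less negative difference in TKO than in DKO, apart from Cox7a1 (1.11 in TKO, -0.11 in DKO). The 7 calls that held under all 18 alternatives were Ndufs1 (0.38, adjusted p = 0.000106), Sdha (0.34, adjusted p = 0.00337), Atp5o (0.31, adjusted p = 0.00112), Atp5c1 (0.27, adjusted p = 0.00156), Ndufa10 (0.26, adjusted p = 0.00283), Uqcrq (-0.49, adjusted p = 0.00109) and Cox6a2 (-1.98, adjusted p = 0.00296). Atp5o and Atp5c1 encode stalk subunits of the synthase, the peripheral OSCP and the central gamma. Atp5o was at 184, 181 and 186 CPM and at 129, 128 and 133 CPM in DKO, and at 181, 177 and 178 CPM and 150, 167 and 155 CPM in TKO. In regular medium DKO and TKO were near each other, and in low glucose all TKO libraries lay above all DKO libraries.

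**Figure D3:**
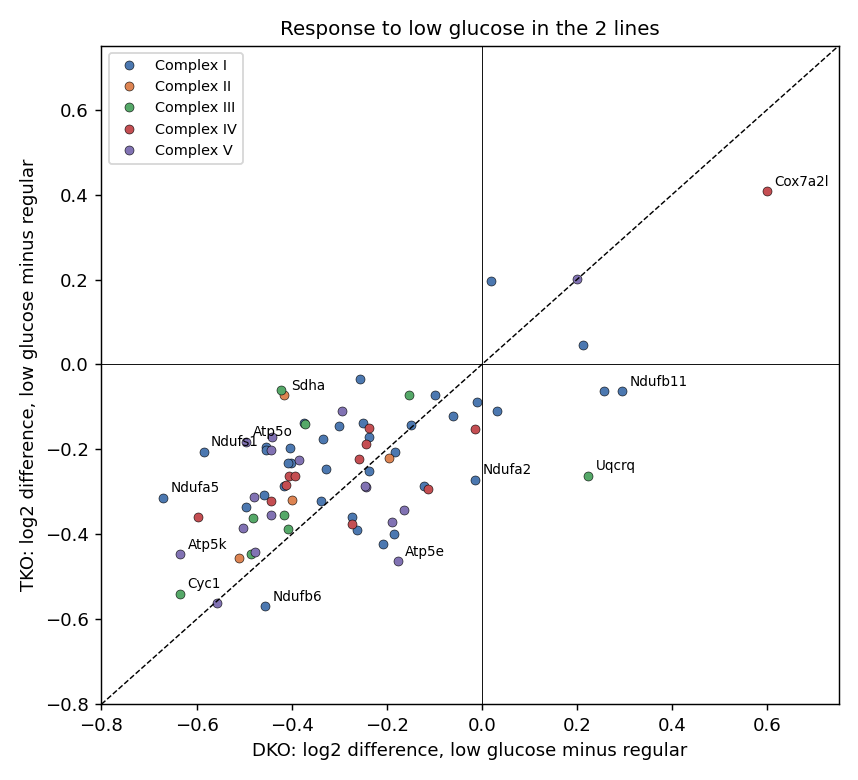
Log2 difference between low-glucose and regular medium in TKO (y axis) against DKO (x axis) for 78 nuclear genes coloured by complex. The dashed line marks equal responses, and Cox6a2 (4.81, 2.83) and Cox7a1 (-0.11, 1.11) lie outside the axes. Most genes sit in the lower left, Ndufs1 and Sdha stand above the line, and Uqcrq stands in the lower right with opposite signs in the lines.

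Across genes, the responses of the lines, which share no library, had a Pearson correlation of 0.886 over 80 genes and 0.649 over 78 genes without Cox6a2 and Cox7a1. The correlation over all genes tested was not taken, and genes are not independent replicates. The regulators also differed in response: of the 13 tested, 9 were higher and 1 lower in the interaction, with Nrf1 at 0.36 (adjusted p = 0.00011), Tfam at 0.27 (adjusted p = 0.00179) and Myc at 0.62 (adjusted p = 0.0168). Myc was at 325 ± 7.03 and 209 ± 2.67 CPM in DKO and at 332 ± 56.0 and 328 ± 67.2 CPM in TKO. Of the 50 assembly factors 5 were higher and 6 lower. Among all genes tested, 17.6% were higher and 12.1% lower in the interaction.

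The comparison of the lines asks which subunit genes differed between TKO and DKO in the same medium. In regular medium 10 of the 80 genes were higher in TKO and 15 lower (median -0.03), beside 61.7% of all genes called, 28.3% higher and 33.4% lower (median -0.01). This balance differed between alternatives: 15 were higher and 7 lower with DESeq2 size factors, and 15 and 3 with no filter on low counts. In low glucose 24 were higher and 16 lower (median 0.07), beside 74.6% of all genes called, 37.2% higher and 37.4% lower (median -0.00), and 29 and 15 with DESeq2 size factors. In regular medium 13 were higher and 13 lower by the adjusted p of the authors' deposited table, and in low glucose 24 and 15. Shares of all genes called were not taken for the deposited tables or for these alternatives. Of the calls in the main fit, 8 were higher in both media (80.0% and 33.3% of the calls) and 7 lower in both (46.7% and 43.8%). For all genes tested this overlap was not taken.

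**Figure D4:**
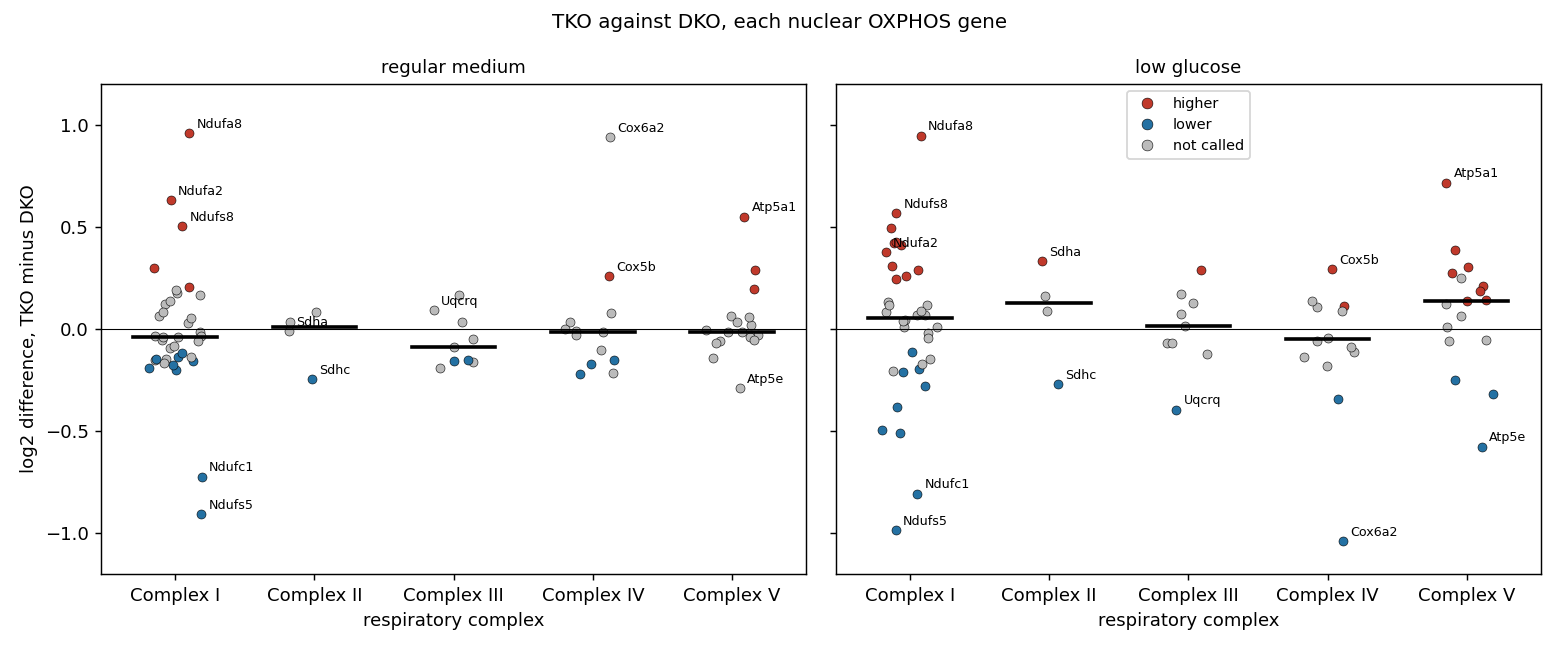
Log2 difference between TKO and DKO (y axis) for each nuclear gene by complex (x axis), in regular medium (left) and low glucose (right). Red and blue points passed the test as higher and lower, grey points did not, and black lines are medians. Cox7a1 (2.02 and 3.23) lies above the axis, and complex I holds genes far from 0 on both sides, with Ndufa8 at 0.96 and 0.95 and Ndufs5 at -0.91 and -0.98.

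The widest differences at a moderate level were in complex I and went both ways. Ndufa8, an accessory subunit with twin cysteine motifs, was at 41.9, 39.1 and 41.6 CPM (DKO) and at 81.2, 74.6 and 82.3 CPM (TKO) in regular medium, and at 33.8, 35.3 and 35.0 CPM and 68.6, 64.9 and 66.6 CPM in low glucose. TKO was 1.94-fold higher in regular medium (adjusted p = 2.52e-10) and 1.93-fold higher in low glucose (adjusted p = 2.54e-10). Ndufs8, an iron-sulphur subunit of the core, was higher by 0.50 and 0.57 (adjusted p = 6.68e-08 and 1.3e-08). Ndufs5 went the other way, at 42.0, 39.5 and 41.7 CPM (DKO) and 18.2, 25.3 and 22.5 CPM (TKO) in regular medium, and at 39.8, 40.5 and 42.0 CPM and 18.5, 26.6 and 18.01 CPM in low glucose. TKO was 1.87-fold lower (adjusted p = 1.73e-05) and 1.98-fold lower (adjusted p = 5.09e-06). Ndufc1 was at 42.5 ± 1.1 CPM (DKO) and 25.6 ± 5.13 CPM (TKO) in regular medium (-0.72, adjusted p = 7.17e-05) and at 35.2 ± 1.09 and 19.9 ± 2.94 CPM in low glucose (-0.81, adjusted p = 2.07e-05). The lines did not overlap in either medium for any of these 4 genes. In low glucose Ndufa7 and Ndufb11, which rose in DKO alone by the calls, were lower in TKO (-0.51 and -0.49).

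**Figure D5:**
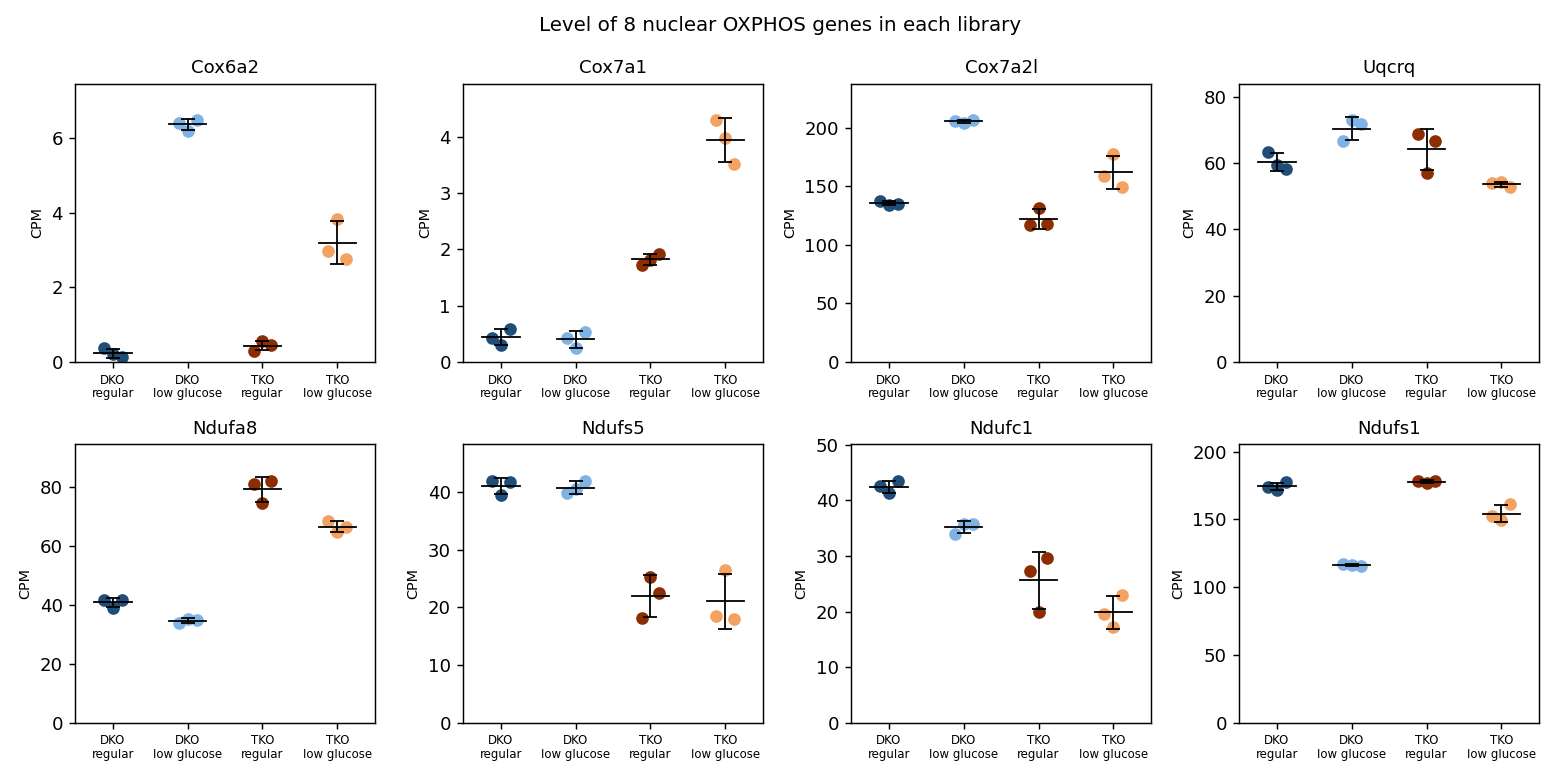
Level of 8 nuclear genes (CPM, y axis from 0) in each of the 12 libraries (points), with the mean (long line) and SD (bars) of the 3 libraries of a group. Cox6a2 is highest in DKO in low glucose (6.21 to 6.50 CPM), Cox7a1 in TKO in low glucose (3.52 to 4.30 CPM), Ndufa8 is higher in TKO, and Ndufs5 and Ndufc1 are lower in TKO.

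In complex II, Sdha was higher in TKO in low glucose (0.33, adjusted p = 5.36e-05) and not in regular medium (-0.01, not called). Sdhc was lower in TKO in both media (-0.25 and -0.27, adjusted p = 0.0287 and 0.0147). The call in regular medium held under 10 of 19 alternatives. In complex III, Uqcrc2, a core protein of that complex, was lower in regular medium (-0.16, adjusted p = 0.00209). Uqcrq was lower in low glucose (-0.39, adjusted p = 5.78e-05) and Uqcr11 higher there (0.29).

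In complex IV, Cox7a1, the muscle form of subunit VIIa, was at 0.429, 0.308 and 0.586 CPM (DKO) and at 1.73, 1.81 and 1.92 CPM (TKO) in regular medium. In low glucose it was at 0.428, 0.244 and 0.538 CPM in DKO and at 4.30, 3.98 and 3.52 CPM in TKO. TKO was 4.06-fold higher in regular medium (adjusted p = 3.2e-06) and 9.41-fold higher in low glucose (adjusted p = 2.72e-09), from 9 to 32 counts per DKO library and 46 to 177 counts per TKO library. Its share of the TPM of the Cox7a family was 1.15 ± 0.349% and 1.04 ± 0.364% in DKO and 5.18 ± 0.251% and 10.7 ± 1.44% in TKO. Cox5b was higher in TKO in both media (0.26 and 0.29), and Cox6a2 was lower in TKO in low glucose (-1.04, adjusted p = 6.06e-06).

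In complex V, Atp5a1, the catalytic-ring alpha subunit, was at 1203 ± 18.7 CPM (DKO) and 1760 ± 70.5 CPM (TKO) in regular medium (1.46-fold, adjusted p = 3.4e-08), and at 863 ± 11.4 and 1417 ± 44.0 CPM in low glucose (1.64-fold, adjusted p = 1.27e-09). Ndufa2 of complex I was higher in TKO by 0.63 in regular medium (adjusted p = 7.56e-07) and 0.37 in low glucose (adjusted p = 0.000105). Both genes lie on chromosome 18, where the median over all 311 genes tested was 0.53 in regular medium and 0.61 in low glucose. The medians of the other 18 autosomes lay from -0.06 to 0.01 and from -0.05 to 0.04. The difference of these genes and that of the chromosome cannot be told apart. Atp5e was lower in TKO in low glucose (-0.58, adjusted p = 0.0123), and it was not called without DKO replicate 2 in low glucose (-0.48, adjusted p = 0.0624).

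The TKO libraries varied more than the DKO libraries within their groups. Over the 80 genes the median absolute log2 deviation of a library from the other libraries of its group was 0.156 and 0.167 for replicate 2 of TKO in regular medium and low glucose, 0.141 for replicate 3 of TKO in low glucose and 0.0272 to 0.103 for the rest. Replicate 2 was the highest of the 3 in both media for 19 genes and the lowest in both for 33. Without it in both media, 66 genes fell and 4 rose in TKO in low glucose, and 21 were higher and 17 lower in TKO in regular medium. Shares of all genes called were not taken for the fit without replicate 2. In TKO the falls of Ndufs3, Cox4i1, Cox5a, Cox7a2 and Atp5g2 in low glucose were called under 13, 14, 15, 13 and 17 of 20 alternatives. The 5 genes called in no comparison were Ndufa13, Ndufb4c, Ndufb9 and Ndufv3 of complex I and Atp5s.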

How the data were processed

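Per the labels' protocols, strand-specific mRNA libraries were made from total RNA with a Kapa mRNA HyperPrep kit. STAR 2.7.3a, DESeq2 1.22.1 and mm10 are named in the submitters' processing notes. How reads were counted is not given in the sources used here. The authors deposited whole-number counts per gene symbol, TPM, and tables of TKO against DKO in each medium with, per the file headers, a mean expression and a test statistic (scores), a log2 fold change with its error, and p-values.

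Counts were tested with edgeR 4.0.16 in R 4.3.3: filterByExpr (count minimum 10, total minimum 15) kept 11988 genes, with TMM scaling and 1 quasi-likelihood fit of the 4 group means over all 12 libraries (8 residual degrees of freedom). P-values were Benjamini-Hochberg adjusted over all genes tested, and errors of log2 differences are model SE. The test was tried on simulated counts first. Summed TPM per complex are descriptions. Named genes were up to 2 called rises and 2 called falls per complex and comparison with a mean of at least 5 CPM, alternative forms of a subunit, the SDH and core complex I genes, genes on a chromosome that differs between lines, and up to 3 genes per further list with the lowest adjusted p. Members and lists were chosen with earlier results of these data known. Ndufa6, Ndufb3, Ndufb8, Atp5b, Atp5f1 and Myc lie outside that rule and were named after their values were seen. The values of 1 member are not reported here. Alternatives were DESeq2 1.42.0 (size factors, Wald test), other filters, a replicate block, own groups only, and leaving libraries out. Same-numbered TKO libraries in the 2 media had correlations of 0.241, 0.788 and 0.609 over genes (replicates 1, 2 and 3). Replicate 1 in regular medium had 0.574 with replicate 3 in low glucose, and replicate 3 had 0.219 with replicate 1. Pairs of replicate 2 with another number lay from -0.708 to -0.274. These values set replicate 2 apart and do not settle how replicates 1 and 3 pair. A blocked fit that takes the numbers to pair TKO libraries was added. Promoter windows came from RefSeq (GRCm38.p6). Depth limits the genes under about 1 CPM.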

Additional observations from a re-analysis of the deposited data

Results flagged for a closer look

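The response to low glucose differed between the lines for 19 of the 80 nuclear genes by the interaction test of edgeR's quasi-likelihood fit (adjusted p under 0.05). That is 23.75% of them, a smaller share than the 29.6% called among all 11988 genes tested. Each value is the log2 response of TKO less that of DKO. It was negative for Cox6a2 (-1.98), Uqcrq (-0.49), Ndufb11 (-0.36), Ndufa7 (-0.32), Ndufa2 (-0.26) and Ndufs7 (-0.22). It was positive in complex I for Ndufs1 (0.38), Ndufa10 (0.26), Ndufb3 (0.22), Ndufv2 (0.21) and Ndufb8 (0.18). In the other complexes it was positive for Sdha (0.34), Uqcrc2 (0.23), Cox7a1 (1.21), Ndufa4 (0.24), Atp5o (0.31), Atp5c1 (0.27), Atp5f1 (0.24) and Atp5a1 (0.17). Calls for Ndufa4, Atp5a1, Ndufa2 and Ndufs7 held under 6, 8, 8 and 9 of 18 alternatives. Those for Ndufb8, Ndufb3, Atp5f1, Ndufv2 and Uqcrc2 held under 14, 16, 16, 17 and 17. Leaving out 1 library ended the call for Cox7a1 (adjusted p = 0.0895 without DKO replicate 3 in regular medium), for Ndufb11 (adjusted p = 0.0589 without DKO replicate 2 in low glucose) and for Ndufa7 (adjusted p = 0.0679 without that library and 0.0517 without TKO replicate 1 in regular medium).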

How the results depend on the processing

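Of 138 calls of named genes 104 held under every alternative run and 34 were lost under at least 1. In regular medium, TKO against DKO, 7 genes were lower with DESeq2 size factors, 7 with the DESeq2 Wald test and 3 with no filter on low counts, and 16 were higher with the Wald test. The median was 0.016 with size factors, 0.016 with the Wald test and 0.026 with no filter. The median response of DKO to low glucose was -0.28 with size factors and with the Wald test and -0.27 with no filter. With no filter the interaction was called higher for 6 and lower for 10 genes (median -0.00022). Causes of these moves were not tested. Shares of all genes called were taken in the main fit only, so the counts under alternatives have none beside them. Ndufb6 in regular medium was 0.13 higher in TKO (adjusted p = 0.048) without replicate 2 of TKO in both media, beside -0.06 in the main comparison and values from -0.17 to 0.13 when libraries were left out. Leaving out 1 library at a time, or TKO replicate 2 in both media, gave 8 to 21 higher and 8 to 19 lower genes in regular medium (median -0.0522 to 0.0111), 22 to 35 and 11 to 23 in low glucose (0.043 to 0.131), 6 to 7 and 52 to 64 for low glucose in DKO (-0.35 to -0.28), 3 to 4 and 41 to 66 in TKO (-0.27 to -0.21), and 9 to 17 and 2 to 17 for the interaction (0.027 to 0.107). The 8 lower genes came without DKO replicate 3 in regular medium. The interaction had 2 lower genes without DKO replicate 2 in low glucose, 3 without TKO replicate 1 and 11 without TKO replicate 2 in regular medium, and 17 without TKO replicate 2 in both media.

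With Ndufa4 counted in complex I, its summed TPM were 9812, 8368, 9878 and 8810 in DKO regular, DKO low glucose, TKO regular and TKO low glucose, and those of complex IV 9153, 7962, 9390 and 8372. Without Atp5k, complex V was at 10739, 8453, 11588 and 9460 TPM, a choice made after seeing the data. With the replicate number as a block over all groups, 11 and 18 genes were higher and lower in TKO in regular medium, 26 and 18 in low glucose, 6 and 60 in the response of DKO, 3 and 56 in that of TKO, and 14 and 6 in the interaction. DKO pairs of the same number did not deviate together (correlations -0.016, -0.062 and -0.0286). The fit with a replicate block within TKO was added after seeing the data. Counts of 7 to 32 per library limit Cox6a2 in regular medium and Cox7a1 in DKO.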
